A study of Mus musculus with 18 samples.

Results

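Dppa2, Dppa3, Dppa4, Dppa5a, Utf1, Tcl1 and L1td1 are genes known chiefly for their high transcript levels in mouse embryonic stem cells, early embryos and germ cells. They were followed across cells that lacked different subunits of Polycomb repressive complex 1. The 7 genes were chosen by name, as 4 developmental pluripotency-associated (Dppa) genes and 3 other embryonic stem cell markers, out of 56551 genes in the deposited table. All 7 were in the table, and all 7 passed the filter of 1 TPM in at least 3 libraries that left 17842 genes for testing; TPM is a length-corrected measure in which the transcripts of each library sum to 1000000.

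RNA was sequenced from mouse embryonic stem cells of 6 genotypes, with 3 libraries each and 18 in all. Ring1a-KO cells lacked Ring1a (gene symbol Ring1), Ring1b-KO cells lacked Ring1b (gene symbol Rnf2), and Ring1a/b-dKO cells lacked both. Pcgf-4KO cells lacked Pcgf1, Pcgf3, Pcgf5 and Pcgf6, and Pcgf-6KO cells lacked in addition Pcgf2 and Pcgf4 (gene symbol Bmi1). WT cells, with none of these deletions, were the controls. Neither the labels nor the design text name the strain, the number of clones or how the deletions were made. No label says that the 3 libraries of a genotype came from separate cultures, so the p-values measure the spread between these libraries, which may be technical.

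Ring1a and Ring1b are the ubiquitin ligases of Polycomb repressive complex 1 (PRC1), which marks histones at silenced developmental genes, and each PRC1 complex holds 1 Pcgf protein. Pcgf2 and Pcgf4 belong to the canonical complexes, which bind chromatin marked by PRC2, while Pcgf1, Pcgf3, Pcgf5 and Pcgf6 define the variant ones. Among the 7 genes, Dppa2 and Dppa4 encode partner proteins that bind CpG-rich promoters as a heterodimer and are known in mouse cells as activators of Dux, the inducer of the 2-cell-like programme. Dppa3 (Stella) restrains Uhrf1 and with it DNA methylation in oocytes and germ cells. Dppa5a (Esg1) is a KH-domain protein that binds RNA, Utf1 is a chromatin protein that limits PRC2 at bivalent promoters, Tcl1 is a co-activator of the Akt kinases, and L1td1 is an RNA-binding protein that descends from a LINE-1 retrotransposon.

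The promoters of the 3 genes that could be matched in the RefSeq promoter table (build GRCm38.p6) are shown because variant PRC1 is known to bind CpG-rich promoters. Each line gives the 250 bases before the start that RefSeq annotates, 5′ to 3′ on the gene's strand, with CpG dinucleotides in capitals. The Utf1 stretch is chr7:139943606-139943855 (plus strand), the Tcl1 stretch chr12:105222738-105222987 (minus strand) and the L1td1 stretch chr4:98726504-98726753 (plus strand). All 3 run past the gene start in the GENCODE annotation, whose positions are given with each gene further on, so the 2 annotations place the starts differently.
Utf1: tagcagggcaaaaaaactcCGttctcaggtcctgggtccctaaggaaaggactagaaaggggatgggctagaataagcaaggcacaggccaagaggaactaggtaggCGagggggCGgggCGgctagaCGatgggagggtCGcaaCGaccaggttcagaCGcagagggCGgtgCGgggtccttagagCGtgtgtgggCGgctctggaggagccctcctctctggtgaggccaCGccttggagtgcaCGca
Tcl1: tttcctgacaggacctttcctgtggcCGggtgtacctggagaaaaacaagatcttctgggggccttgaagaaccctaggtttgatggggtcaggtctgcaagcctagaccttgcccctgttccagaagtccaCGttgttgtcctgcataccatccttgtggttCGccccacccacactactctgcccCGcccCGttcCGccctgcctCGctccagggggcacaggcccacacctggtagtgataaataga
L1td1: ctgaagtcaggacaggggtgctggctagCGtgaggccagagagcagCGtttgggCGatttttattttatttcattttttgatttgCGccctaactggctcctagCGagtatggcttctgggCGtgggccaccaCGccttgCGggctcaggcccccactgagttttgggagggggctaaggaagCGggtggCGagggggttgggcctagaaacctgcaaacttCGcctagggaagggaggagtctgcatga
Utf1 held 14 CpG in this window, L1td1 11 and Tcl1 7, against a median of 6 over all 32851 RefSeq promoter windows of this length. Of those windows, 70.6% held fewer CpG than Utf1, 64.4% fewer than L1td1 and 53.7% fewer than Tcl1. Their GC content was 61.6% in Utf1 and 57.6% in both Tcl1 and L1td1, against a median of 52.4%. Searched on both strands, none of the 3 windows held the E-box CACGTG, present in 6.02% of all windows, the E2f-type GCGGGAA (3.82%), the octamer ATGCAAAT (1.6%), the Sox-type CATTGT (10.7%) or the Esrrb-type TCAAGGTCA (0.387%). No motif overlapped another, since none was found.

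The first 60 coding bases of Dppa5a are shown beside those of its pseudogene Dppa5b, because the 2 transcripts can compete for the same reads. Capitals mark the bases that differ. The Dppa5a stretch is chr9:78368040-78368099, minus strand, read from the GENCODE transcripts on GRCm38, and Dppa5b also lies on chromosome 9.
Dppa5a: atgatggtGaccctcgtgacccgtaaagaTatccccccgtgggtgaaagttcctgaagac
Dppa5b: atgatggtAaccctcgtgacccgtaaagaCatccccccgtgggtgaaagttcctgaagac
Over the 348 bases that aligned, 309 were identical (88.8%) and 39 differed.

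The label of the cells was checked on 8 embryonic stem cell genes fixed as a list (Pou5f1, Sox2, Nanog, Zfp42, Esrrb, Lin28a, Tdgf1 and Sall4), none of which was at 0 in any genotype. Their summed level was 2454 to 2670 TPM in Ring1a-KO, 2973 to 3065 in Ring1b-KO, 1313 to 1366 in Ring1a/b-dKO, 1529 to 1539 in Pcgf-4KO, 773 to 793 in Pcgf-6KO and 2608 to 2622 in WT libraries. Markers of other cell types moved with these genotypes. The summed level of 9 trophoblast markers (Hand1, Cdx2, Gata3 and others) was 17.2 to 19.7 TPM in Ring1a-KO, 45.2 to 45.5 in Ring1b-KO, 228 to 239.8 in Ring1a/b-dKO, 259.9 to 267 in Pcgf-4KO, 722 to 739.7 in Pcgf-6KO and 13.5 to 15.2 in WT libraries. All 9 were called higher than WT in every genotype except Ring1a-KO, where 3 were. When libraries were scaled by the median ratio of their genes, 8 were higher in Ring1b-KO. Quantile normalization gave 7 in Ring1b-KO and 8 in each of Ring1a/b-dKO and Pcgf-4KO. Of 8 endoderm markers, with sums of 28.3 to 30.9, 85.0 to 85.5, 87.7 to 91.6, 81.1 to 85.0 and 147 to 215 TPM in the knockouts in the same order and 10.5 to 11.5 in WT, 7 were tested and all 7 were higher in every genotype except Ring1a-KO, where 1 was. Median ratio scaling and quantile normalization each left 6 of these 7 higher in Ring1a/b-dKO, without Dab2 (0.22 and -0.11). Of all genes tested, 12.3% were called higher in Ring1a-KO, 34.7% in Ring1b-KO, 48.6% in Ring1a/b-dKO, 47.1% in Pcgf-4KO and 51.7% in Pcgf-6KO. No trophoblast or endoderm marker was at 0 in all libraries of any genotype. The 10 fibroblast (feeder) markers summed to between 16.1 and 37.1 TPM in every library. In such bulk samples, fewer cells of a type and less RNA per cell cannot be told apart, and the part of these other markers in the results below was not tested.

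The targeted genes were read as a check of the labels. Ring1 was at 4.05 ± 1.31 TPM in Ring1a-KO and 6.09 ± 3.33 in Ring1a/b-dKO, against 7.21 ± 0.182 in WT (SD, n = 3 each), so much of its transcript remained in the libraries labelled as knockouts. Rnf2 was at 49.4 ± 3.13 TPM in Ring1b-KO and 22.8 ± 2.94 in Ring1a/b-dKO, against 71.3 ± 5.24 in WT. Pcgf6 was at 0.0567 ± 0.0513 TPM in Pcgf-4KO and 10.6 ± 0.780 in Pcgf-6KO, against 53.0 ± 0.258 in WT, Pcgf1 at 1.23 ± 1.20 and 3.03 ± 1.11, against 10.9 ± 0.995, and Pcgf2 at 16.8 ± 1.28 in Pcgf-6KO, against 68.6 ± 4.71. Pcgf3 was at 11.8 ± 0.501 and 12.4 ± 2.50 in the same 2 genotypes, against 13.2 ± 0.430, while Pcgf5, at 14.5 ± 1.24 and 22.1 ± 1.11, against 9.55 ± 0.555, and Bmi1 (Pcgf4), at 15.6 ± 1.09 in Pcgf-6KO, against 1.60 ± 0.824, were above WT. Where the deleted parts lie is not given, so transcript levels outside them check nothing, and the genotypes are given as labelled. Each library held 14207 to 16585 genes at 1 TPM or more. Small RNAs took 1.59% and 0.8% of the TPM in Ring1a-KO replicates 2 and 3 and at most 0.437% elsewhere.

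**Figure D1:**
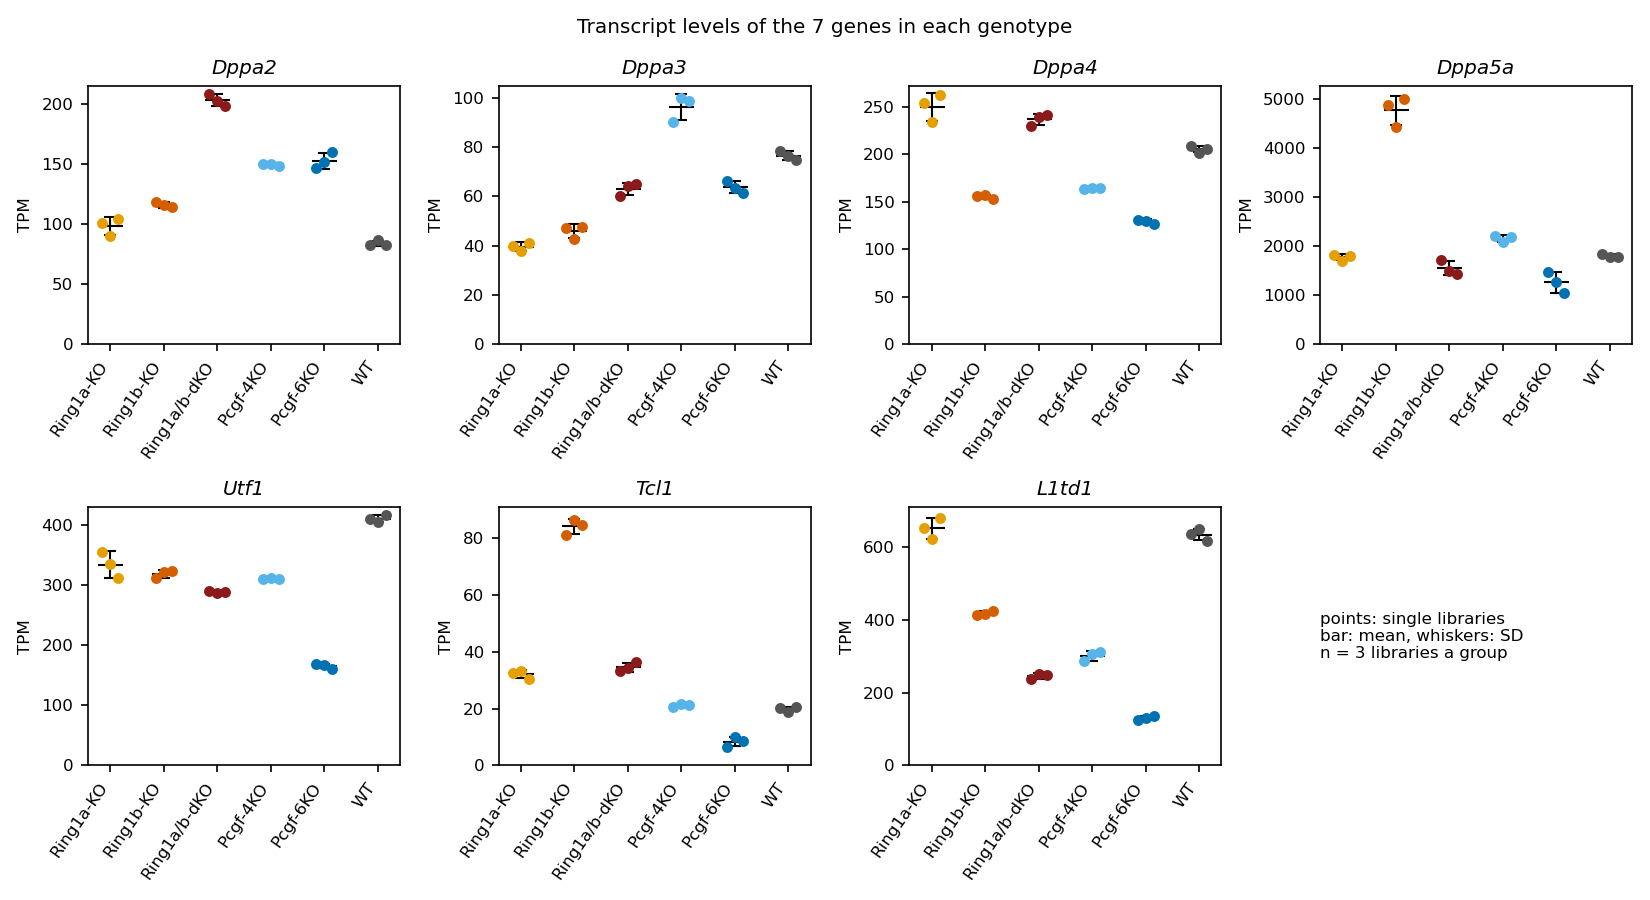
TPM of each of the 7 genes (vertical axes, each from 0) in the 6 genotypes (horizontal axes); points are single libraries, bars the mean and whiskers the SD of 3 libraries. Dppa5a and Tcl1 stand out in Ring1b-KO (4761 and 84.2 TPM on average), Dppa2 is lowest in WT, and Utf1, Tcl1 and L1td1 are lowest in Pcgf-6KO.

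In WT cells the 7 genes spanned a wide range of expression. Dppa5a, at 1794 ± 32.7 TPM, ranked 97 of 56551 genes by mean level, L1td1 222, Utf1 319, Dppa4 663, Dppa2 1654, Dppa3 1804 and Tcl1, at 19.8 ± 0.762 TPM, 5563. TPM corrects for length, so these levels can be compared between genes. The ratio of the highest to the lowest genotype mean was 10.1 for Tcl1, 5.02 for L1td1, 3.79 for Dppa5a, 2.48 for Utf1, 2.44 for Dppa3, 2.43 for Dppa2 and 1.94 for Dppa4. No genotype moved the 7 together in 1 direction, although Pcgf-6KO came nearest, with 6 of 7 lower than WT, where 22.5% of all genes tested were called lower.

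Dppa2 (ENSMUSG00000072419, chr16:48303908-48319723, plus strand, GRCm38) was lower in WT than in every knockout. It was at 101, 90.1 and 104 TPM in the Ring1a-KO libraries, 118, 115 and 114 in Ring1b-KO and 208, 202 and 198 in Ring1a/b-dKO. In Pcgf-4KO it was at 149.7, 150.2 and 148 TPM and in Pcgf-6KO at 146, 152 and 159, against 82.1, 86.3 and 82.3 in WT. Every knockout library lay above every WT library, and only Pcgf-4KO and Pcgf-6KO, neighbours in the order of levels, overlapped. On the log2(TPM + 1) scale the difference from WT was 0.23 ± 0.05 (SE) in Ring1a-KO (limma adjusted p = 0.00261), 0.47 ± 0.05 in Ring1b-KO (adjusted p = 9.39e-07) and 1.27 ± 0.05, or 2.41-fold, in Ring1a/b-dKO (adjusted p = 5.85e-12). It was 0.83 ± 0.05 for Pcgf-4KO (adjusted p = 6.85e-10) and 0.86 ± 0.05 for Pcgf-6KO (adjusted p = 2.5e-10). When libraries were scaled by the median ratio of their genes, Dppa2 stayed higher in all 5 genotypes, with smaller differences of 0.29 in Ring1b-KO, 0.51 in Pcgf-4KO and 0.49 in Pcgf-6KO. The Ring1a-KO call was lost when only the 2 groups compared were fitted (adjusted p = 0.0583).

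Dppa4 (ENSMUSG00000058550, chr16:48283733-48294237, plus strand), which starts 20.2 kb before Dppa2 on the same strand, did not follow it. Its level was 254, 234 and 263 TPM in Ring1a-KO, 156, 157 and 153 in Ring1b-KO and 230.3, 239 and 241 in Ring1a/b-dKO. The Pcgf-4KO libraries had 164, 164 and 164 TPM and the Pcgf-6KO libraries 131, 129 and 126, against 209, 202 and 206 in WT. All Ring1a-KO and Ring1a/b-dKO libraries lay above WT and all others below it, and Ring1a-KO and Ring1a/b-dKO overlapped each other. Dppa4 was lower by the fit in Ring1b-KO (log2 difference -0.40 ± 0.04, adjusted p = 3.48e-07), Pcgf-4KO (-0.32 ± 0.04, adjusted p = 2.1e-06) and Pcgf-6KO (-0.67 ± 0.04, adjusted p = 2.96e-10). Median ratio scaling gave -0.65 in Pcgf-4KO and -1.04 in Pcgf-6KO. It was higher in Ring1a-KO (0.28 ± 0.04, adjusted p = 7.54e-05). The higher call in Ring1a/b-dKO (0.20 ± 0.04, adjusted p = 0.000217) turned to a lower one under median ratio scaling (-0.16, adjusted p = 0.00697), so its direction depends on how libraries are scaled.

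The ratio of Dppa2 to Dppa4 within a library does not depend on that scaling. It was 0.398, 0.385 and 0.397 in the Ring1a-KO libraries, 0.758, 0.735 and 0.745 in Ring1b-KO and 0.905, 0.845 and 0.822 in Ring1a/b-dKO. The Pcgf-4KO libraries gave 0.915, 0.913 and 0.904 and the Pcgf-6KO libraries 1.11, 1.17 and 1.26, against 0.392, 0.427 and 0.4 in WT. Only Ring1a-KO overlapped WT. The mean ratio was 1.84 times that of WT in Ring1b-KO, 2.11 times in Ring1a/b-dKO, 2.24 times in Pcgf-4KO and 2.91 times in Pcgf-6KO, and 0.967 times in Ring1a-KO. A two-sided exact permutation test gave p = 0.1 for each of the first 4 genotypes, the smallest value that 3 against 3 libraries allow, and p = 0.4 for Ring1a-KO. In Pcgf-6KO alone, Dppa2 exceeded Dppa4 in all 3 libraries. Across the 18 libraries the log2 levels of the 2 genes had a Pearson r of -0.17, given as a description.

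**Figure D2:**
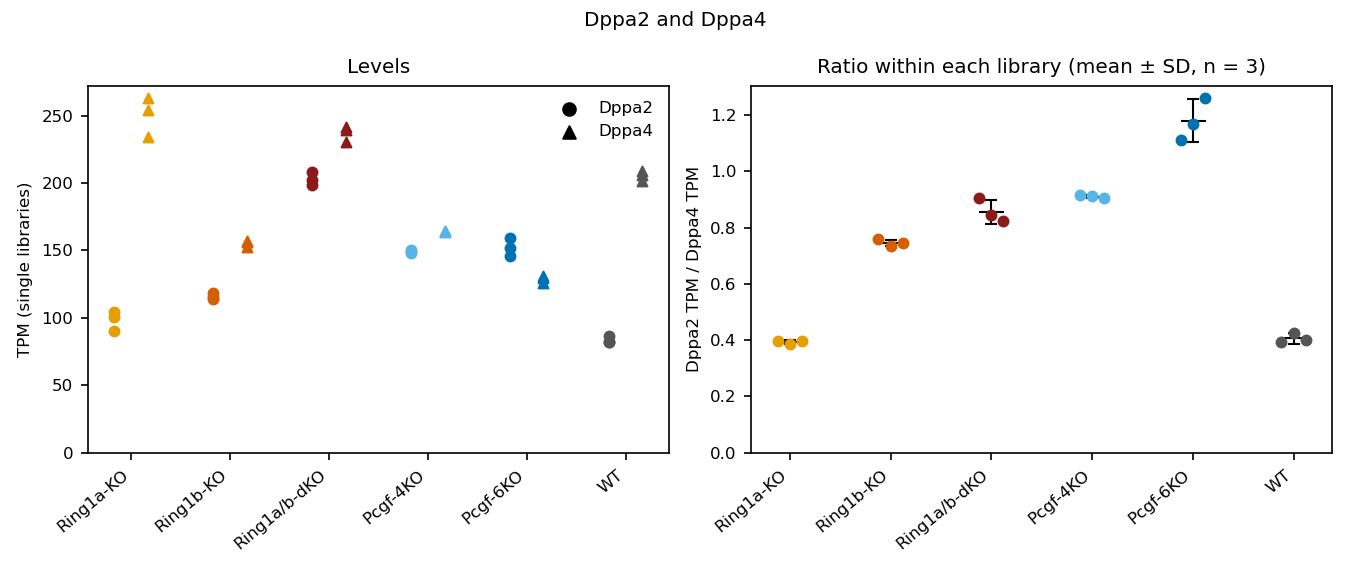
Left, TPM of Dppa2 (circles) and Dppa4 (triangles) in each library of the 6 genotypes; right, the Dppa2 to Dppa4 ratio in each library, with mean ± SD of 3. The ratio is near 0.4 in Ring1a-KO and WT and 0.735 or more in every library of the other 4 genotypes.

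Dppa3 (ENSMUSG00000046323, chr6:122626410-122630272, plus strand) was lower in both single Ring1 knockouts than in the double one. It was at 39.9, 37.6 and 41.1 TPM in Ring1a-KO, 47.2, 42.6 and 47.7 in Ring1b-KO and 60.4, 64.2 and 64.9 in Ring1a/b-dKO. In Pcgf-4KO it was at 90.4, 100.1 and 98.9 TPM and in Pcgf-6KO at 66.4, 63.5 and 61.4, against 78.5, 76.5 and 74.9 in WT. Pcgf-4KO lay above all other libraries, the 2 single Ring1 knockouts lay below all others, and Pcgf-6KO overlapped Ring1a/b-dKO. The log2 difference from WT was -0.94 ± 0.05 in Ring1a-KO (adjusted p = 1.33e-08) and -0.73 ± 0.05 in Ring1b-KO (adjusted p = 2.52e-08). It was -0.28 ± 0.05 in Ring1a/b-dKO (adjusted p = 0.000361) and -0.26 ± 0.05 in Pcgf-6KO (adjusted p = 0.000454), and median ratio scaling enlarged both, to -0.64 and -0.63, as did quantile normalization, to -0.43 and -0.49. The rise in Pcgf-4KO (0.33 ± 0.05, adjusted p = 7.49e-05) was no longer called under median ratio scaling (0.01, adjusted p = 0.941) and was 0.15 under quantile normalization. The processed pseudogene Dppa3-ps was listed at 0 in all 18 libraries.

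Dppa5a (ENSMUSG00000060461, chr9:78367052-78368177, minus strand) was the most abundant of the 7 in every genotype, and it rose in Ring1b-KO cells. Its level was 1805, 1697 and 1794 TPM in Ring1a-KO, 4866, 4429 and 4987 in Ring1b-KO and 1702, 1489 and 1433 in Ring1a/b-dKO. The 3 Pcgf-4KO libraries were at 2198, 2072 and 2169 TPM and those of Pcgf-6KO at 1467, 1258 and 1048, against 1831, 1781 and 1769 in WT. Every Ring1b-KO library was above all libraries of the other genotypes, while Ring1a-KO overlapped WT and Ring1a/b-dKO, which in turn overlapped Pcgf-6KO. The log2 difference from WT was 1.41 ± 0.09 in Ring1b-KO, 2.65-fold (adjusted p = 6.37e-09), and -0.53 ± 0.09 in Pcgf-6KO (adjusted p = 0.000102), where median ratio scaling gave -0.90 and quantile normalization -0.34. In Ring1a-KO it was -0.02 ± 0.09 (adjusted p = 0.908), with no call. The other 2 calls were marginal. That in Ring1a/b-dKO (-0.22 ± 0.09, adjusted p = 0.0468) was -0.59 under median ratio scaling, but was lost without a filter on low values (adjusted p = 0.0933), under quantile normalization (-0.05, adjusted p = 0.579) and in 14 of the 18 fits that left out 1 library (-0.23 to -0.17, adjusted p 0.0515 to 0.166), all but those without Ring1b-KO replicate 2, Ring1a/b-dKO replicate 1 or Pcgf-6KO replicate 1 or 3. It was also lost without both Ring1a-KO replicates 2 and 3 (adjusted p = 0.0614). That in Pcgf-4KO (0.26 ± 0.09, adjusted p = 0.0228) turned to -0.07 under median ratio scaling, was 0.45 under quantile normalization, and was lost without Pcgf-4KO replicate 1 (0.24, adjusted p = 0.0641) or 3 (0.25, adjusted p = 0.0558) and without WT replicate 2 (0.25, adjusted p = 0.0534) or 3 (0.25, adjusted p = 0.0579).

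The pseudogene Dppa5b was measured at 15.4, 13.4 and 15.6 TPM in Ring1b-KO, against 5.86, 6.18 and 5.16 in WT, a log2 difference of 1.23 ± 0.16 (adjusted p = 1.44e-05). Its mean level was 0.31% to 0.486% of that of Dppa5a in every genotype. With the similarity shown above, reads of the 2 genes could have been split between them, so the Dppa5b values are uncertain.

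Utf1 (ENSMUSG00000047751, chr7:139943789-139945112, plus strand) was higher in WT than in every knockout. It was at 355, 334 and 311 TPM in Ring1a-KO, 311, 321 and 323 in Ring1b-KO and 290.4, 287 and 288 in Ring1a/b-dKO. In Pcgf-4KO it was at 309.9, 311 and 309 TPM and in Pcgf-6KO at 168, 167 and 160.4, against 409.7, 405 and 416 in WT. No knockout library reached the lowest WT library, the Pcgf-6KO libraries lay far below the rest, and Ring1a-KO, Ring1b-KO and Pcgf-4KO overlapped. The log2 difference from WT was -0.30 ± 0.04 in Ring1a-KO (adjusted p = 5.11e-05), -0.36 ± 0.04 in Ring1b-KO (adjusted p = 1.44e-06) and -0.51 ± 0.04 in Ring1a/b-dKO (adjusted p = 1.82e-08). It was -0.40 ± 0.04 in Pcgf-4KO (adjusted p = 2.56e-07) and -1.31 ± 0.04, 2.48-fold lower, in Pcgf-6KO (adjusted p = 1.63e-13). Median ratio scaling made the differences in Ring1b-KO, Ring1a/b-dKO and Pcgf-4KO larger, at -0.54, -0.87 and -0.73.

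Tcl1 (ENSMUSG00000041359, chr12:105216750-105222793, minus strand) spanned the widest range of the 7 and moved in opposite directions in Ring1b-KO and Pcgf-6KO cells. Its level was 32.6, 33.3 and 30.5 TPM in Ring1a-KO, 81.3, 86.5 and 84.7 in Ring1b-KO and 33.3, 34.3 and 36.4 in Ring1a/b-dKO. Pcgf-4KO libraries were at 20.5, 21.7 and 21.4 TPM and Pcgf-6KO libraries at 6.59, 9.91 and 8.51, against 20.1, 18.9 and 20.4 in WT. Ring1b-KO stood above and Pcgf-6KO below all other libraries, and Ring1a/b-dKO overlapped Ring1a-KO. The log2 difference from WT was 2.03 ± 0.09, 4.09-fold, in Ring1b-KO (adjusted p = 9.88e-11), 0.67 ± 0.09 in Ring1a-KO (adjusted p = 9.59e-05) and 0.78 ± 0.09 in Ring1a/b-dKO (adjusted p = 2.67e-06), which became 0.42 under median ratio scaling and 0.49 under quantile normalization. It was -1.17 ± 0.09 in Pcgf-6KO (adjusted p = 1.68e-08). In Pcgf-4KO the difference of 0.09 ± 0.09 was not called (adjusted p = 0.394), and it was -0.22 (adjusted p = 0.041) under median ratio scaling and -0.20 (adjusted p = 0.0586) under quantile normalization.

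L1td1 (ENSMUSG00000087166, chr4:98726734-98738480, plus strand) fell in 4 of the 5 knockouts, most in Pcgf-6KO. It was at 651, 621 and 679.7 TPM in Ring1a-KO, 413, 416 and 424 in Ring1b-KO and 238, 252 and 247 in Ring1a/b-dKO. In Pcgf-4KO it was at 286, 305 and 311 TPM and in Pcgf-6KO at 124, 130.2 and 135, against 636, 649 and 617 in WT. Only Ring1a-KO overlapped WT, and every other pair of neighbours in the order of levels was apart. The log2 difference from WT was -0.60 ± 0.04 in Ring1b-KO (adjusted p = 1.66e-08), -1.36 ± 0.04 in Ring1a/b-dKO (adjusted p = 7.45e-13), -1.07 ± 0.04 in Pcgf-4KO (adjusted p = 9.87e-12) and -2.28 ± 0.04, 4.86-fold lower, in Pcgf-6KO (adjusted p = 1.1e-15). In Ring1a-KO it was 0.04 ± 0.04 and not called (adjusted p = 0.603).

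**Figure D3:**
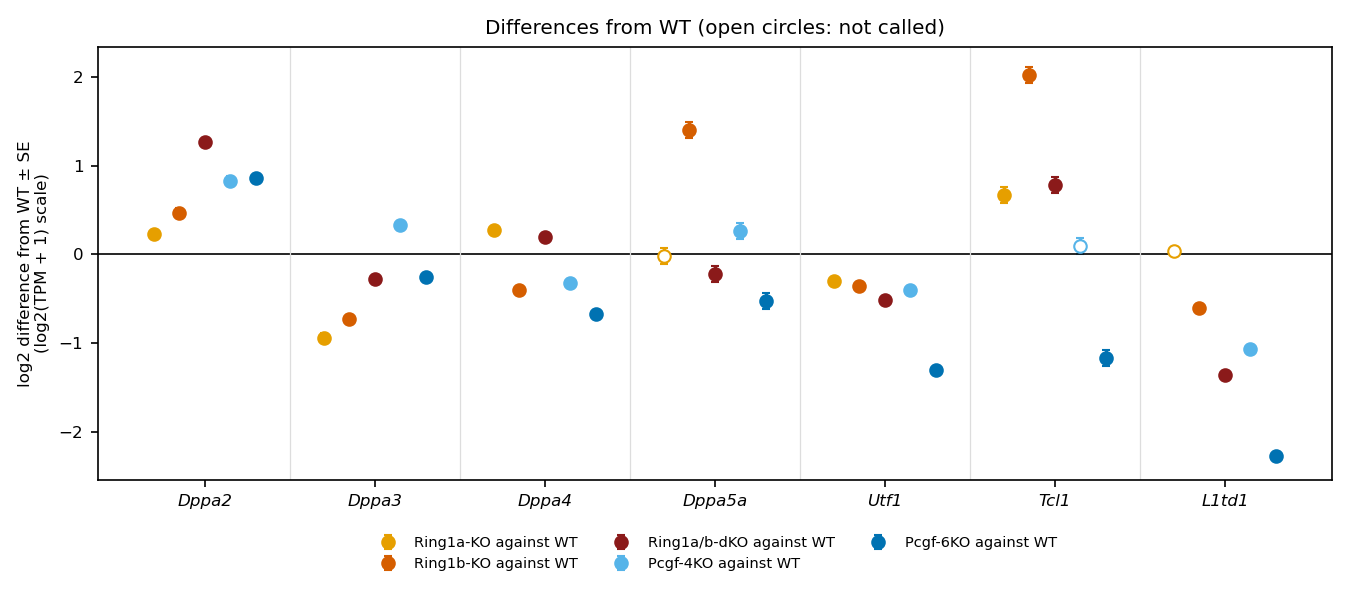
Difference from WT on the log2(TPM + 1) scale (vertical axis) for each gene (horizontal axis) in 5 genotypes; points are fitted values from limma over 18 libraries, whiskers the SE, and open circles comparisons that were not called. Dppa2 is above 0 and Utf1 below 0 in all 5 genotypes, while the higher values of Dppa4 in Ring1a/b-dKO and Dppa5a in Pcgf-4KO turn negative under median ratio scaling.

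Counted over the 7 genes, 3 were called higher and 2 lower than WT in Ring1a-KO, where 23.1% of all genes tested were called (12.3% higher, 10.8% lower). In Ring1b-KO 3 were higher and 4 lower, beside 51.8% of all genes called (34.7% higher, 17.1% lower). The counts were again 3 higher and 4 lower in Ring1a/b-dKO, beside 64.4% of all genes (48.6% higher, 15.8% lower). In Pcgf-4KO 3 were higher and 3 lower, beside 65% (47.1% higher, 17.9% lower). In Pcgf-6KO 1, Dppa2, was higher and 6 were lower, beside 74.2% (51.7% higher, 22.5% lower). Median ratio scaling changed these counts to 2 higher and 5 lower in Ring1a/b-dKO and to 1 higher and 4 lower in Pcgf-4KO, and quantile normalization to 3 higher and 3 lower in Ring1a/b-dKO. Mitochondrial transcripts took 3.58% to 4.65% of the TPM in Pcgf-6KO, 5% to 5.42% in Ring1a/b-dKO, 5.95% to 7.34% in the other knockouts and 6.38% to 6.88% in WT, and with nuclear protein-coding genes only the 5 pairs of counts were the same as with all genes. The median log2 difference of the 7 was 0.04 in Ring1a-KO, -0.36 in Ring1b-KO, -0.22 in Ring1a/b-dKO, 0.09 in Pcgf-4KO and -0.67 in Pcgf-6KO, beside 0.01, 0.13, 0.28, 0.25 and 0.33 for all genes tested. The 5 comparisons share the WT libraries. Under median ratio scaling the medians of all genes moved to between -0.007 and 0.036, and the share of called genes that were above WT was 50.6% in place of 75.5% in Ring1a/b-dKO, 50.4% in place of 72.5% in Pcgf-4KO, 52.1% in place of 69.6% in Pcgf-6KO and 48.8% in place of 67% in Ring1b-KO.

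Loss of both Ring1 proteins was compared with loss of Ring1b alone. All 7 genes were called (59.9% of all genes tested were, 41.1% higher and 18.8% lower): Dppa2 (0.80 ± 0.05), Dppa3 (0.46 ± 0.05) and Dppa4 (0.61 ± 0.04) were higher in Ring1a/b-dKO than in Ring1b-KO. Dppa5a (-1.63 ± 0.09), Utf1 (-0.14 ± 0.04), Tcl1 (-1.26 ± 0.09) and L1td1 (-0.76 ± 0.04) were lower, and over the 7 genes the adjusted p ran from 1.01e-09 for L1td1 to 0.00554 for Utf1. Dppa5a was 3.09-fold and Tcl1 2.39-fold lower in Ring1a/b-dKO than in Ring1b-KO, on the log2(TPM + 1) scale. Under median ratio scaling the Dppa3 difference was 0.27, and 51.5% of all called genes were above Ring1b-KO in place of 68.6%.

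The 4 groups Ring1a/b-dKO, Ring1a-KO, Ring1b-KO and WT also allow a test of whether the double knockout equals the sum of the single ones on the log2 scale. All 7 genes departed from that sum (48.7% of all genes tested did, 33.2% upward and 15.5% downward), 4 upward and 3 downward. Of all called genes, 68.1% lay above the sum with TPM and 53% under median ratio scaling. Dppa3 was at -0.28 ± 0.05 relative to WT in the double knockout, while the single ones summed to -1.67, an interaction of 1.39 ± 0.08 (adjusted p = 2.13e-09); the sum would correspond to 23.4 TPM. Dppa2 was at 1.27, against a sum of 0.70, so that it exceeded the sum by 0.57 ± 0.07 (adjusted p = 6.11e-06). Tcl1 was at 0.78, against a sum of 2.71 (interaction -1.93 ± 0.13, adjusted p = 2.01e-08), and Dppa5a at -0.22, against 1.38 (interaction -1.60 ± 0.13, adjusted p = 1.36e-07). L1td1 was at -1.36, against -0.56, a departure of -0.80 ± 0.06 (adjusted p = 6.21e-08). The departures of Dppa4 (0.33 ± 0.05, adjusted p = 0.000136) and Utf1 (0.16 ± 0.06, adjusted p = 0.0268) were not called under median ratio scaling, at 0.17 (adjusted p = 0.0509) and -0.0020 (adjusted p = 0.986). That of Utf1 was also lost in 4 of the fits that left out 1 library, those without Ring1a-KO replicate 3 (0.11, adjusted p = 0.0567), Ring1b-KO replicate 1 (0.14, adjusted p = 0.0662), Ring1a/b-dKO replicate 1 (0.15, adjusted p = 0.0528) or WT replicate 3 (0.15, adjusted p = 0.0588), and without both Ring1a-KO replicates 2 and 3 (0.06, adjusted p = 0.279).

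**Figure D4:**
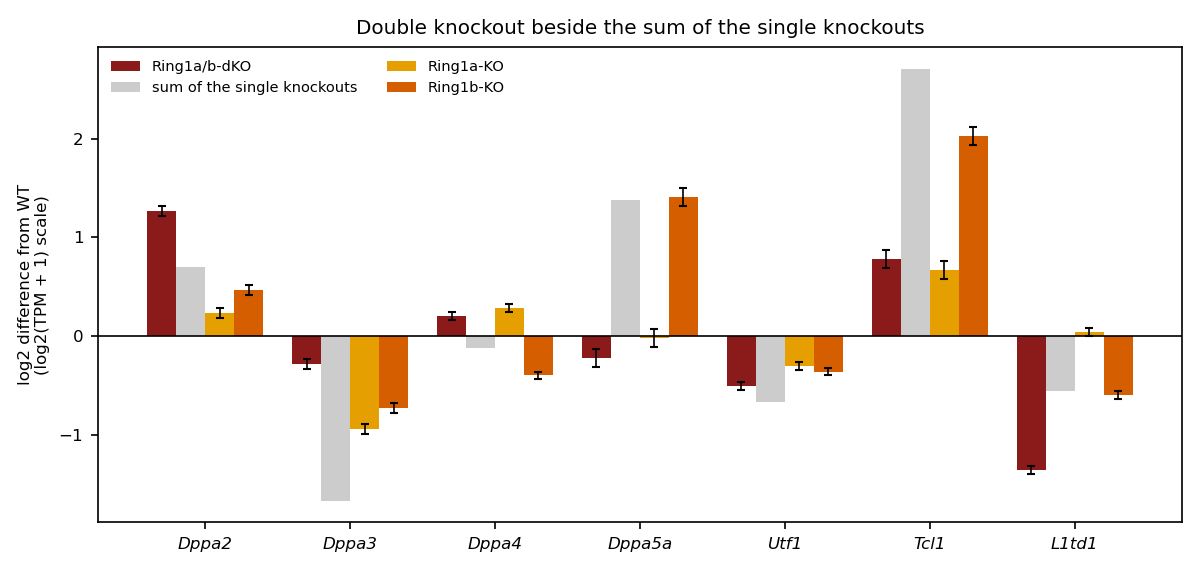
Log2 difference from WT (vertical axis, log2(TPM + 1) scale) of each gene (horizontal axis) in Ring1a/b-dKO, beside the sum of the 2 single knockouts and each of these alone; bars are fitted values and whiskers the SE (none for the sum). Tcl1 and Dppa5a lie far below their sums of 2.71 and 1.38, Dppa3 far above its sum of -1.67, and the Utf1 departure turns from 0.16 to -0.0020 under median ratio scaling.

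Pcgf-6KO was compared with Pcgf-4KO, from which it differs by label in the loss of the canonical Pcgf2 and Pcgf4. Transcripts of variant subunits differed too, with Pcgf6 at 10.6 TPM in Pcgf-6KO and 0.0567 in Pcgf-4KO, and Pcgf1 at 3.03 and 1.23. The loss of Pcgf2 and Pcgf4 and other differences between the 2 genotypes cannot be told apart. Of the 7 genes, 6 were lower in Pcgf-6KO and none higher (52.8% of all genes called, 28.8% higher and 24% lower); of the called genes, 54.6% were above Pcgf-4KO with TPM and 41.3% under quantile normalization. Tcl1 differed by -1.26 ± 0.09 (adjusted p = 3.02e-08) and L1td1 by -1.21 ± 0.04 (adjusted p = 1.32e-11). Utf1 (-0.91 ± 0.04), Dppa5a (-0.78 ± 0.09), Dppa3 (-0.59 ± 0.05) and Dppa4 (-0.35 ± 0.04) followed, with adjusted p of at most 4.54e-06. Dppa2, at 0.03 ± 0.05, was not called (adjusted p = 0.653). These 6 genes were lower under each of the 9 alternatives that kept all libraries.

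Pcgf-6KO and Ring1a/b-dKO were made to lose PRC1 in different ways, through its Pcgf subunits and through its ligases. Of the 7, 6 were lower in Pcgf-6KO than in Ring1a/b-dKO (58% of all genes called, 28.3% higher and 29.6% lower). Tcl1 differed by -1.95 ± 0.09, L1td1 by -0.92 ± 0.04, Dppa4 by -0.87 ± 0.04, Utf1 by -0.80 ± 0.04 and Dppa2 by -0.41 ± 0.05, with adjusted p of at most 3.32e-06. Dppa5a (-0.30 ± 0.09, adjusted p = 0.011) was no longer called without Ring1a/b-dKO replicate 1 (-0.23, adjusted p = 0.0614) or Pcgf-6KO replicate 3 (-0.18, adjusted p = 0.0561), or with only the 2 groups fitted (adjusted p = 0.0997). Dppa3 differed by 0.01 ± 0.05 and was not called (adjusted p = 0.845).

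The 2-cell-like programme that Dppa2 and Dppa4 are known to activate was read from a list (the Zscan4 cluster, Zfp352, Tcstv genes and others), of which 16 were in the table and 13 passed the filter. The summed level of the 16 averaged 0.177 TPM in Ring1a-KO, 87.4 in Ring1b-KO, 1.07 in Ring1a/b-dKO, 11.7 in Pcgf-4KO, 74.4 in Pcgf-6KO and 0.163 in WT. Zscan4f, a marker of the 2-cell-like state, averaged 19.8 ± 0.832 TPM in Ring1b-KO and 14.0 ± 1.83 in Pcgf-6KO but 0.393 ± 0.145 in Ring1a/b-dKO, and was listed at 0 in all 3 WT libraries. Of the 13 tested, 13 were called higher than WT in Ring1b-KO, 1 in Ring1a/b-dKO, 11 in Pcgf-4KO, 13 in Pcgf-6KO and none in Ring1a-KO. Their sum was at most 0.31 TPM in any WT library, so those tested passed the filter through knockouts. Of all genes tested, 34.7% were called higher in Ring1b-KO, 48.6% in Ring1a/b-dKO, 47.1% in Pcgf-4KO, 51.7% in Pcgf-6KO and 12.3% in Ring1a-KO. Ring1a/b-dKO had the highest Dppa2 level of the 6 genotypes. Its 2-cell-like sum, 0.7 to 1.3 TPM, was above the 0.08 to 0.31 of WT but far below those of Ring1b-KO and Pcgf-6KO. Zscan4f was the gene called higher there (log2 difference 0.47). Dppa4 was lowest in Pcgf-6KO (129 TPM) and Ring1b-KO (155 TPM), the 2 genotypes with the highest 2-cell-like sums. Whether the level of Dppa2 or Dppa4 affects these genes was not tested.

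The genes around Dppa3 in germ cells and methylation were read from 2 further lists. Uhrf1, the methylation cofactor that Dppa3 restrains, averaged 71.5 ± 10.8 TPM in Pcgf-6KO and 177 ± 3.18 in WT (log2 difference -1.31 ± 0.07, adjusted p = 2.64e-10). Of 8 methylation genes, 1 was higher and 2 lower in Ring1a-KO, 2 were higher and 3 lower in each of Ring1b-KO, Ring1a/b-dKO and Pcgf-4KO, and 2 were higher and 6 lower in Pcgf-6KO. Median ratio scaling gave 6 lower in Ring1a/b-dKO and Pcgf-4KO as well, Uhrf1 among them (-0.31 and -0.41). The methyltransferase Dnmt3a was lower in all 5, from -0.81 ± 0.11 in Ring1b-KO to -2.39 ± 0.11 in Pcgf-6KO, and its cofactor Dnmt3l was higher in Ring1a-KO (0.27 ± 0.04), Ring1a/b-dKO (1.13 ± 0.04), Pcgf-4KO (1.52 ± 0.04) and Pcgf-6KO (0.86 ± 0.04). Of 9 primordial germ cell genes, Ring1a-KO had 2 lower and none higher, Ring1b-KO 5 higher and 3 lower, Ring1a/b-dKO and Pcgf-4KO 3 higher and 4 lower each, and Pcgf-6KO 3 higher and 5 lower. Beside both lists, the share of all genes called higher was 12.3% in Ring1a-KO, 34.7% in Ring1b-KO, 48.6% in Ring1a/b-dKO, 47.1% in Pcgf-4KO and 51.7% in Pcgf-6KO. The share called lower was 10.8%, 17.1%, 15.8%, 17.9% and 22.5% in the same order. Among the germ cell genes that rose, the germline RNA-binding gene Dazl differed from WT by 5.40 ± 0.08 in Ring1b-KO. The helicase gene Ddx4 differed by 3.51 ± 0.05 in Ring1a/b-dKO. Among those that fell, Ifitm3 differed by -1.44 ± 0.09 in Pcgf-4KO and Dnd1 by -1.53 ± 0.12 in Pcgf-6KO.

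Akt1 and Akt2, kinases that Tcl1 co-activates, were called higher in Ring1a/b-dKO, Pcgf-4KO and Pcgf-6KO, but median ratio scaling ended the Akt2 calls (0.09, -0.04 and 0.01). In the single knockouts neither was called, and Akt1 was called lower under median ratio scaling (-0.16 in Ring1a-KO and -0.14 in Ring1b-KO). In Pcgf-6KO, the genotype with the lowest Tcl1, Akt1 averaged 66.9 ± 5.67 TPM, against 34.1 ± 0.726 in WT (log2 difference 0.95 ± 0.06). None of the 5 Tcl1b genes beside Tcl1 passed the filter.

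Of 18 core and naive pluripotency factors, Ring1a-KO cells had 6 higher and 4 lower than WT. Ring1b-KO and Pcgf-4KO had 10 higher and 7 lower each, and median ratio scaling made this 7 higher and 9 lower in Pcgf-4KO. Ring1a/b-dKO had 7 higher and 11 lower (4 and 11 under that scaling), and in Pcgf-6KO 4 were higher and 13 lower (2 and 15). Of all genes tested, 12.3% were called higher in Ring1a-KO, 34.7% in Ring1b-KO, 47.1% in Pcgf-4KO, 48.6% in Ring1a/b-dKO and 51.7% in Pcgf-6KO. Those called lower were 10.8%, 17.1%, 17.9%, 15.8% and 22.5% in the same order. Nanog averaged 387 ± 10.6 TPM in Ring1b-KO, 36.3 ± 1.86 in Ring1a/b-dKO and 24.5 ± 0.950 in Pcgf-6KO, against 108 ± 3.50 in WT. Tbx3, a naive-state factor, rose in Ring1b-KO (3.82 ± 0.20), Ring1a/b-dKO (2.16 ± 0.20), Pcgf-4KO (3.22 ± 0.20) and Pcgf-6KO (2.09 ± 0.20) and fell in Ring1a-KO (-0.73 ± 0.20). Tdgf1, a Nodal co-receptor, fell in Ring1a/b-dKO (-2.16 ± 0.04), Pcgf-4KO (-2.15 ± 0.04) and Pcgf-6KO (-4.37 ± 0.04) and rose in Ring1b-KO (0.45 ± 0.04). Formative and primed genes were mostly lower: of the list's 8 genes 7 were tested, and 5 of these were lower in Ring1a-KO and Ring1b-KO and 6 in the other 3 genotypes, with Otx2 at -3.53 ± 0.10 in Pcgf-4KO and Foxp1 at -2.80 ± 0.10 in Pcgf-6KO. Sox3 was higher, in Ring1a/b-dKO (1.16 ± 0.16).

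Genes with a start within 100 kb were compared with each member. Dppa3 lies in a cluster with Gdf3, a Nodal-related ligand 16.3 kb away, and Nanog, 81.1 kb away. Gdf3 differed from WT by -0.52 in Ring1b-KO, -1.19 in Ring1a/b-dKO, -0.95 in Pcgf-4KO and -2.05 in Pcgf-6KO, and Nanog by 1.83, -1.55, 0.12 and -2.10 in the same order, the 0.12 in Pcgf-4KO turning to -0.20 under median ratio scaling. Neither followed Dppa3, which was highest in Pcgf-4KO. Beside Dppa5a, by contrast, Ooep, a KH-domain gene of the maternal subcortical complex 10.5 kb away, averaged 8.52 ± 0.476 TPM in Ring1a-KO, 50.8 ± 2.17 in Ring1b-KO, 7.57 ± 0.361 in Ring1a/b-dKO, 15.4 ± 0.755 in Pcgf-4KO and 8.0 ± 0.412 in Pcgf-6KO, against 11.9 ± 1.24 in WT. Its log2 difference from WT in Ring1b-KO was 2.02 ± 0.07 (adjusted p = 6.04e-12), beside 1.41 for Dppa5a. The other KH-domain and maternal-complex genes that were tested, Khdc3 (1.32 ± 0.09) and Tle6 (0.88 ± 0.14), were also higher in Ring1b-KO. All 3 tested genes of a list of 8 were thus higher there, beside 34.7% of all genes tested. In other genotypes the 3 parted, with Tle6 at 1.56 ± 0.14 in Ring1a/b-dKO, where Ooep was at -0.58 ± 0.07, and Khdc3 at -1.72 ± 0.09 in Pcgf-6KO. The further neighbours of Dppa5a, the helicase gene Ddx43 and Cgas, were called higher in every genotype except Ring1a-KO, Ddx43 by 1.41 in Ring1b-KO, 1.24 in Ring1a/b-dKO, 1.84 in Pcgf-4KO and 1.62 in Pcgf-6KO, and Cgas by 1.49, 1.47, 1.28 and 1.62 in the same order. Of the other members, Utf1 had 6 tested neighbours, L1td1 2 and Tcl1 none, and no neighbour overlapped a member.

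**Figure D5:**
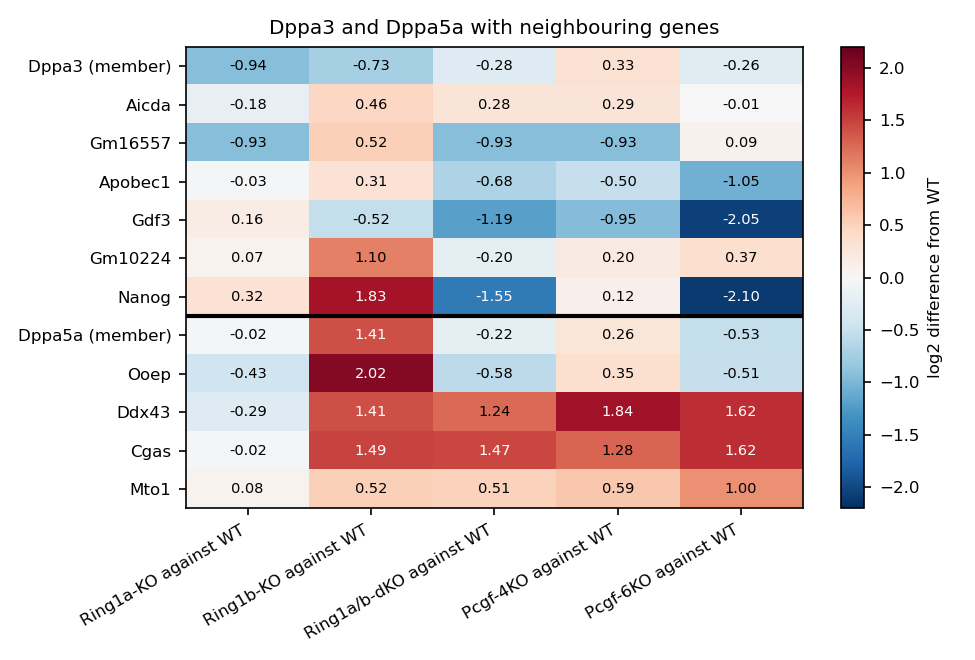
Log2 difference from WT (colour and printed value) in 5 genotypes (columns) for Dppa3, Dppa5a and all tested genes whose start lies within 100 kb of theirs (rows, ordered by position; the line parts the 2 neighbourhoods). Ooep is the neighbour with a value above 2 in Ring1b-KO, where Dppa5a is at 1.41, while Nanog and Gdf3 reach -2.10 and -2.05 in Pcgf-6KO, where Dppa3 is at -0.26; the Dppa5a value of 0.26 in Pcgf-4KO turns to -0.07 under median ratio scaling.

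Across the 18 libraries the log2 levels of Utf1 and L1td1 had a Pearson r of 0.90, Dppa5a and Tcl1 0.81, and Dppa2 and L1td1 -0.78; these describe libraries that fall into 6 genotypes and share their scaling. Among 4917 genes that varied by at least 1 log2 unit between genotypes, the pattern most like that of L1td1 was that of Gdf3 (r = 0.997), followed by Snx5, Enox1, Pitrm1 and Rcc2 (at least 0.986). Utf1 was most like Upp1 (0.982), Rbpms2, Ctbp2, Pir and Slc20a2 (at least 0.972). For Dppa5a the nearest was its neighbour Ooep (0.961), then H2afx, Isoc2a, Acp6 and Pecr (at least 0.935), and for Tcl1 Elovl5 (0.960), then Cox6b2, Cox4i2, Kmt5c and Esrrb (at least 0.934). Dppa2 was most like Man1c1 (0.988), with Hr, Itprid2, Tbx1 and Rnf181 next (at least 0.977), and Dppa4 like Klhl13 (0.970), with Arhgap30, Llgl1, Pde9a and Elavl3 next (at least 0.954). Dppa3 had the least close match, Cacng7 (0.904), before F2rl1, Hs6st2, Rab3il1 and H3f3b (at least 0.841).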

How the data were processed

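RNA was sequenced from 18 libraries of mouse embryonic stem cells, 3 for each of 6 genotypes, made from total RNA with a TruSeq kit, per the labels' protocols. The authors deposited 1 table of TPM per gene and library for 56551 genes, with 2 decimals, in which each library sums to 1000000. Per the submitters' processing notes, the build was GRCm38.p5 and the tools included RSEM, edgeR and TopHat2 2.1.1; whether counting used strand is not given in the sources used here. Sequencing depth cannot be read from TPM, and no interval for counting error is given. The 6 columns of group means were not used.

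After a filter that kept genes reaching 1 TPM in 3 or more libraries, 17842 were fitted together as log2(TPM + 1) with limma 3.58.1 in R 4.3.3, with the 6 genotypes as groups, 12 residual degrees of freedom, a mean-variance trend and two-sided tests. Fold changes are on that scale and understate those of low genes. Each of 9 comparisons was adjusted by Benjamini-Hochberg over all genes, with 0.05 as the threshold of a call. No replicate block was used, since no label says that a replicate number marks a shared culture, day or batch. Same-numbered replicates of different genotypes also did not deviate together. Alternatives changed the pseudocount (0.1, 0.5), the filter (none, 5 TPM), the scaling (median ratio, quantile, nuclear protein-coding genes only), the samples fitted or the block, or left out each library. One more, without Ring1a-KO replicates 2 and 3 together, was chosen after seeing the data.

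The text names the 7 members in every comparison, the targeted genes, up to 3 genes per list and comparison with the largest called change, genes starting within 100 kb of a member, and the 5 genes per member with the highest Pearson r; Zscan4f, Uhrf1, Nanog, Akt1, Dnmt3l, Tbx3 and Tdgf1 values in further genotypes were chosen after their values were seen, as were Dppa5b, Dppa3-ps and Dppa1. The members and lists were chosen with earlier results of these data known. Promoters came from RefSeq (GRCm38.p6, 3 of 7 members matched) and gene positions from GENCODE on GRCm38. Figures were drawn with matplotlib 3.10.9.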

Additional observations from a re-analysis of the deposited data

Results flagged for a closer look

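All 7 genes are given here for 1 reason: the effect of losing Ring1b differed between Ring1a-KO cells and WT cells, by the interaction term of the limma fit. The difference between the effects was 0.57 for Dppa2, 1.39 for Dppa3, 0.33 for Dppa4 and 0.16 for Utf1, where the effect was higher in Ring1a-KO cells, and -1.60 for Dppa5a, -1.93 for Tcl1 and -0.80 for L1td1, where it was lower (log2 units). With 48.7% of all genes tested showing such a difference, a call of this kind was common in these data. The 0.33 of Dppa4 and the 0.16 of Utf1 were not called under median ratio scaling (0.17 and -0.0020), and the other 5 kept their direction and call under every alternative run. Groups of 3 libraries were too small to test for an outlying library.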

How the results depend on the processing

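Of 567 values of the 7 genes under 9 alternatives that kept all libraries, 548 kept their direction and their side of the threshold, 8 lost the call and 11 turned. Under median ratio scaling 3 called values turned, Dppa4 in Ring1a/b-dKO (-0.16), Dppa5a in Pcgf-4KO (-0.07) and the Utf1 interaction (-0.0020). The other 8 were not called with TPM: Tcl1 in Pcgf-4KO (-0.22 with median ratio, -0.20 with quantile scaling), Dppa2 in Pcgf-6KO against Pcgf-4KO (-0.02 with median ratio, -0.0018 with quantile scaling, -0.01 with nuclear protein-coding genes only), Dppa3 in Pcgf-6KO against Ring1a/b-dKO (-0.06 with quantile scaling, -0.01 with nuclear protein-coding genes only) and Dppa5a in Ring1a-KO (0.01 with nuclear protein-coding genes only, and also without Ring1a-KO replicates 2 and 3 together). The construction of that scaling centres the ratios of all genes, whose median with TPM lay at 0.283 in Ring1a/b-dKO and 0.248 in Pcgf-4KO. The 8 lost calls were Dppa5a in Ring1a/b-dKO without a filter (-0.22) and with quantile normalization (-0.05), Dppa5a in Pcgf-4KO without a filter (0.26, adjusted p = 0.0501), Dppa3 in Pcgf-4KO (0.01) and the Dppa4 interaction (0.17) with median ratio scaling, the Utf1 interaction with nuclear protein-coding genes only (0.06), and, with only the groups compared, Dppa2 in Ring1a-KO (0.23) and Dppa5a in Pcgf-6KO against Ring1a/b-dKO (-0.30). Apart from the scaling, the cause was not tested.

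Leaving out 1 library at a time kept 1106 of 1134 values; 24, of Dppa5a and the Utf1 interaction, lost the call, and 4 that were not called turned, in Dppa5a in Ring1a-KO (-0.04 to 0.0048), Dppa2 in Pcgf-6KO against Pcgf-4KO (-0.0045 to 0.06) and Dppa3 in Pcgf-6KO against Ring1a/b-dKO (-0.02 to 0.04). The number of the 7 genes called was then 5 to 5 in Ring1a-KO, 7 to 7 in Ring1b-KO, 6 to 7 in Ring1a/b-dKO, 5 to 6 in Pcgf-4KO, 7 to 7 in Pcgf-6KO, 7 to 7 for Ring1a/b-dKO against Ring1b-KO, 6 to 6 for Pcgf-6KO against Pcgf-4KO, 5 to 6 for Pcgf-6KO against Ring1a/b-dKO and 6 to 7 for the interaction. Same-numbered libraries of different genotypes correlated at -0.109 to 0.071 over 45 pairs, and for 5 of 18 libraries the best match in another genotype had their number. With the replicate number as a block, 7 genes were called in Ring1a/b-dKO and 6 in Pcgf-4KO, as without it, and no call of a member changed; all 9 counts were the same.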

Other observations

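Dppa1 shares the name of the family but was not among the 7 genes. It was at 2.82, 3.21 and 4.99 TPM in Pcgf-4KO and 3.64, 4.48 and 4.88 TPM in Pcgf-6KO, against 0.04, 0 and 0 TPM in WT. Libraries of the single Ring1 knockouts had at most 0.27 TPM and those of Ring1a/b-dKO 0.4 to 1.24. Dppa1 thus passed the filter of 1 TPM in 3 libraries through the 2 Pcgf knockouts. Its higher calls there follow in part from that filter and are given as a description. The log2 difference from WT was 2.18 ± 0.18 in Pcgf-4KO (limma adjusted p = 5.03e-08) and 2.39 ± 0.18 in Pcgf-6KO (adjusted p = 1.05e-08), and 0.73 ± 0.18 in Ring1a/b-dKO (adjusted p = 0.00256), where it averaged 0.717 TPM. Pcgf-6KO exceeded Ring1a/b-dKO by 1.66 ± 0.18 (adjusted p = 1.86e-06), while 6 of the 7 genes above were lower in Pcgf-6KO than in Ring1a/b-dKO.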
